A study of Mus musculus with 48 samples.

Results

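The nuclear-encoded respiratory chain genes are the genes of the cell nucleus whose proteins are carried into mitochondria to build the electron transport chain and the ATP synthase. They were taken by symbol from the deposited count table: every row starting with Nduf, Uqcr, Atp5 or Cox4 to Cox8, together with Sdha, Sdhb, Sdhc, Sdhd and Cycs. The rule finds 93 of the 24062 genes in the table. It also takes in complex I assembly factors and a few genes that are only related to the complexes, and these are kept apart below. The cells are 48 single mouse cells sorted as BFU-E (burst-forming unit erythroid), early progenitors of the red cell lineage, from fetal liver at embryonic day 14.5. The labels give 1 group, with no genotype, strain, treatment or animal for any cell. The sort kept c-Kit+ cells with the lowest CD71 and removed cells bearing markers of mature lineages and of stem and myeloid progenitors. RNA of each cell was amplified as full-length cDNA by SMART-Seq on a microfluidic chip.

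Complexes I and II pass electrons from NADH and succinate to ubiquinone, complex III passes them on to cytochrome c, and complex IV hands them to oxygen. The proton gradient this builds drives the ATP synthase, a rotary enzyme with a catalytic F1 head, a stalk and a membrane part. The chain is put together from subunits encoded in the nucleus and in mitochondrial DNA, and in erythroid cells mitochondria also house the first and the last steps of heme synthesis. Several subunits of complex IV come as pairs of genes, a common form and a form known from heart and skeletal muscle, lung or testis. No row of the table carries a name of the mitochondrially encoded subunits, which were not analysed here.

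Promoters of 5 members are shown first because the results below turn on these genes: Cox6a1 had the highest level per length of all members, Atp5k had one of the smallest spreads between cells, Atp5g1 has one of the highest correlations with Gata1, and Cox6b1 and Cox6b2 are the common and the testis-type form of one complex IV subunit. Each is the 250 bases before the RefSeq start of the gene on build GRCm38.p6, on the minus strand and written 5′ to 3′. The stretches are chr5:115348959-115349208 (Cox6a1), chr5:108434400-108434649 (Atp5k), chr11:96075632-96075881 (Atp5g1), chr7:30626115-30626364 (Cox6b1) and chr7:4753095-4753344 (Cox6b2). Capitals mark letters searched for on both strands: GCGCA and GCGC parted by any 1 base for NRF1, CCGGAAG for GABPA, AAGATGGCG for YY1 and AGATAA for GATA factors.
Cox6a1: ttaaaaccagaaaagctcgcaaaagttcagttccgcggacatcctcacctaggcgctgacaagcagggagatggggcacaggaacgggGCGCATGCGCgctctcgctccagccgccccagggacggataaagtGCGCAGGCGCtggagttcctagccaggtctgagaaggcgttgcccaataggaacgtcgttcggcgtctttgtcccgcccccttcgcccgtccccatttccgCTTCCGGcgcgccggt
Atp5k: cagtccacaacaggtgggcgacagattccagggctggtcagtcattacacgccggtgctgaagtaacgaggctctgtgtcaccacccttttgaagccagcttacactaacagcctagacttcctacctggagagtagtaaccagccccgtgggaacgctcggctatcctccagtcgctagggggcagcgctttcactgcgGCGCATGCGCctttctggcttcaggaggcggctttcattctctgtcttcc
Atp5g1: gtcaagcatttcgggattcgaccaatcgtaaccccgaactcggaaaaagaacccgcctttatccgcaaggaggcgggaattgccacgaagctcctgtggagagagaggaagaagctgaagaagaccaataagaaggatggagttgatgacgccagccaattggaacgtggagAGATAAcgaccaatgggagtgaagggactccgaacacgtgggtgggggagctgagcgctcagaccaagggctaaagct
Cox6b1: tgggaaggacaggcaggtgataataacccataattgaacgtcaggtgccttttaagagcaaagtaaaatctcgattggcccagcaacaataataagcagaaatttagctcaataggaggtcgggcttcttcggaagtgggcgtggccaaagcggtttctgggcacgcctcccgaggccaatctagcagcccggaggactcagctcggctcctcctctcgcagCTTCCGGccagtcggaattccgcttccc
Cox6b2: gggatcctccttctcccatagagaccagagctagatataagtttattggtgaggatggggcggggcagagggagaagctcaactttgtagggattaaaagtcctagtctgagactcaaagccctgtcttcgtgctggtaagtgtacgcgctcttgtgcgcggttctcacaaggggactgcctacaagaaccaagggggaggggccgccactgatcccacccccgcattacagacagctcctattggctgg
In Cox6a1 the NRF1 letters lie 162 and 117 bases before the start and the GABPA letters 16 bases before it. Atp5k holds the NRF1 letters 50 bases before its start, Atp5g1 the GATA letters at 78 bases, and Cox6b1 the GABPA letters at 28 bases. The stretch of Cox6b2 holds none of the letters searched for.

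Over all members, RefSeq promoters were matched for 75 of 93, in windows of 300 bases that reach from 250 before to 50 after each start. NRF1 and GABPA are general activators of nuclear genes for mitochondrial proteins. The NRF1 letters were in 19 of the 75 (25.3%), against 5.19% of all 27025 genes in the promoter table and 13.7% of the 6514 genes with a matched promoter that passed the filter on low values described below. The GABPA letters were in 17 (22.7%), against 9.93% of all genes and 24.2% of the genes that passed. The YY1 letters, which are named for another general activator, were in 8 (10.7%, against 1.64% and 4.59%). The TATAAA letters of a TATA box were in 7 (9.33%, against 15.7% and 7.88%), and the GATA letters in 6 (8%, against 12.7% and 7.4%). Members thus held the NRF1 and YY1 letters more often than both backgrounds, and the GABPA letters at about the share of other genes read in these cells. GC content, which moves with such letters, had a median of 58.3% in the members, 61% in the genes that passed and 52.8% in all genes. A match is a run of letters and not a measured binding site.

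Reads per cell ran from 246007 to 3211186, with a median of 1915270 over the 48 cells, and 5180 to 7935 genes had a read in a cell. Levels are CPM, counts brought to a common library total, scaled with TMM factors, a correction for RNA composition. In 2 cells the macrophage genes C1qa, C1qb and C1qc summed to 15715 and 9314 CPM, against at most 381 CPM in any of the other cells. Those 2 macrophage-like cells are left out of the main values, which rest on 46 cells. Gata1, the transcription factor that drives erythroid genes, ran from 0 to 1722 CPM in the 46 cells with a median of 70.3, and 4 cells had no Gata1 read. Mpo, the myeloperoxidase of neutrophil precursors, ran from 1.32 to 53282 CPM with a median of 238, reached 1000 CPM or more in 18 of the 46 cells and took up to 4.27% of the counts of a cell. The gate was therefore mixed at the RNA level, and Gata1 and Mpo were themselves opposed (Spearman rho -0.61 over the 46 cells). The labels name no animal, so the cells are 1 sample, correlations across them are descriptions with no p-value, and since the protocol counts PCR reads, not molecules, each limit given for a count of 0 covers counting error only.

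Most of the chain was read in every cell. Of the 93 members, 85 had a read in at least 10 of the 46 cells and 56 had a read in all of them. All 85 also passed the filter on low values, which asks for reads in 10 or more cells together with a mean level of 5 CPM or more and was passed by 8482 genes of the table. Another 3 members had reads in fewer cells: Cox4i2 in 6, Cox7a1 in 4 and Ndufa4l2 in 3. The last 5, Ndufs5, Cox6a2, Cox7b2, Cox8b and Cox8c, are listed at 0 in all 48 cells, which allows a share of up to 6.25% of cells with a read. Members lie on 19 chromosomes, 3 of them on the X.

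The 93 genes took between 1.34% and 2.87% of the counts of a cell, with a median of 1.86% and a mean of 1.9% ± 0.311 (SD over 46 cells). The cell with the largest share stood 2.14 times above the cell with the smallest. Their summed level ran from 9744 to 29522 CPM with a median of 18066, a mean of 18482 ± 3492 (SD) and a coefficient of variation of 0.19. The 2 macrophage-like cells had 1.21% and 1.34% of their counts on these genes, near or under the lowest of the other cells. On the TMM scale the same cells had sums of 28743 and 23235 CPM, near the top of the others, so their place among the cells depends on the scaling (their TMM factors were 0.4193 and 0.5785).

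**Figure D1:**
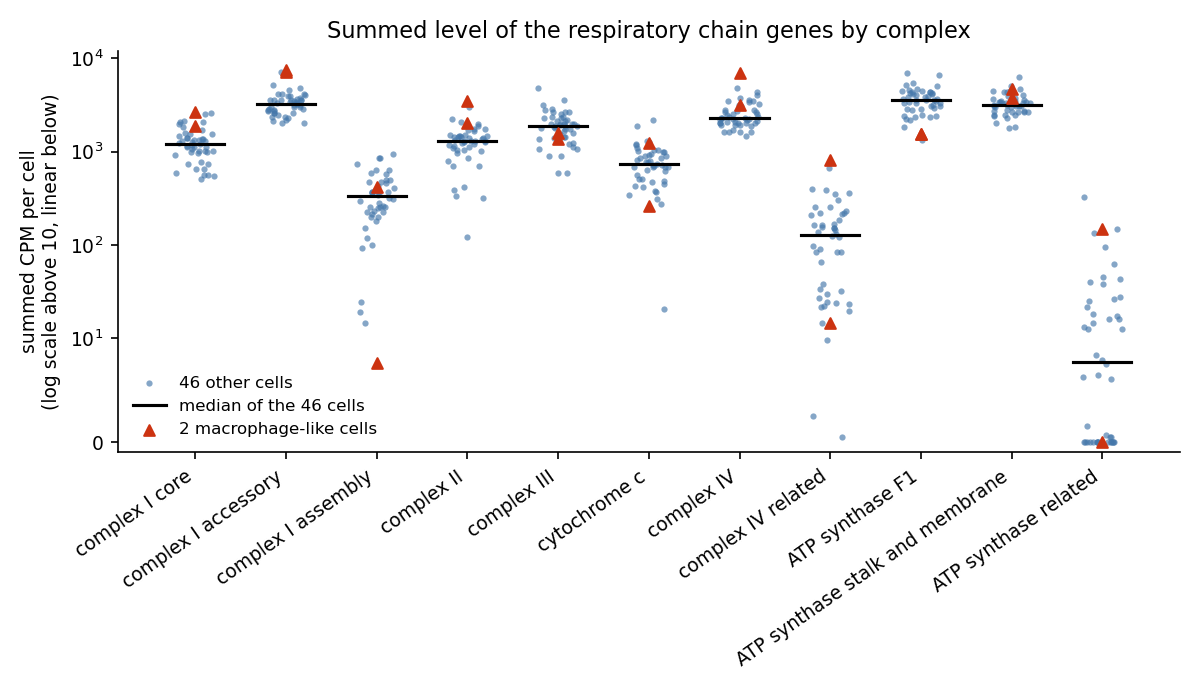
Summed CPM of the members of each complex (vertical axis, log scale above 10 and linear below), one point per cell for 46 cells with their median as a line, and triangles for the 2 macrophage-like cells. The F1 head, the accessory subunits of complex I and the stalk and membrane part of the ATP synthase have medians of 3564, 3267 and 3162 CPM, while the complex I assembly factors stand at 331 CPM.

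Complex I has 7 core subunits of nuclear origin that carry the flavin and iron-sulfur centres, and their sum was 503, 1189 and 2554 CPM as lowest, median and highest of the 46 cells. Per kilobase of mRNA, the scale on which genes can be compared, Ndufv2 was the highest of them with a mean of 354 CPM per kb, and Ndufs1 the lowest with 74.2. Ndufv2, an iron-sulfur subunit of the NADH-binding tip, had 1.06, 299 and 959 CPM. Ndufs1, the largest iron-sulfur subunit, had 0, 122 and 641 CPM. Both were thus near absent in some cells and among the well-read genes of others.

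The 29 accessory subunits, which wrap the core and hold it together, summed to 2015, 3267 and 7091 CPM. Among the 28 with reads Ndufb8 was the highest per length (421 CPM per kb) with its shortest RefSeq-paired mRNA, and Ndufab1, the mitochondrial acyl carrier protein, the lowest (24.6). With median transcript lengths Ndufb8 had 203 CPM per kb and Ndufa7 was the highest with 224. Ndufb8 had 7.3, 243 and 1045 CPM and Ndufab1 had 6.86, 70.6 and 201 CPM. Ndufs5, another accessory subunit (chr4:123712710-123718202 on GRCm38, minus strand), is the member listed at 0 that has no tissue-type counterpart in the lists. Of its 50-base mRNA windows 21.7% also occur in a transcript of BC002163, and that gene had 97 reads in 30 cells. Whether reads were shared out between the 2 genes was not tested, since the counting rule for reads that fit several places is not given in the sources used here.

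The 7 complex I assembly factors are chaperones and enzymes that help build the complex and are not part of it. They summed to 14.6, 331 and 942 CPM, less in the median than the sums of any of the complexes themselves, and none of the 7 had a read in every cell. Per length they ran from Ndufaf2 (82.3 CPM per kb) to Ndufaf6 (9.33). Ndufaf2 had 0, 48.8 and 287 CPM, and Ndufaf6 had 0, 0 and 90.9 CPM. The middle member of the group stood at 22.8 CPM per kb, against 94.6 in the core and 162 in the accessory subunits.

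Complex II is succinate dehydrogenase, shared by the chain and the citric acid cycle, and its 4 genes summed to 123, 1298 and 3028 CPM. Sdhd, a membrane anchor, was highest per length (490 CPM per kb) and had 12.2, 537 and 1349 CPM. Sdhc, the other anchor, was lowest (34.4 CPM per kb) and had 0, 72.6 and 544 CPM. Sdhb, the iron-sulfur subunit, and Sdha, the flavin subunit, lay between them with 267 and 87.8 CPM per kb. The 4 subunits stand in equal numbers in the enzyme, while the mRNA levels per length of the 2 anchors lay at opposite ends. The 8 genes of complex III summed to 589, 1888 and 4783 CPM. Uqcr11 was the highest per length (455 CPM per kb) and Uqcrq the lowest (67.2), both small subunits, with 16, 181 and 465 CPM and 28.6, 88.6 and 395 CPM. Cycs, cytochrome c, the mobile carrier between complexes III and IV, had 20.6, 732 and 2196 CPM and a mean of 251 CPM per kb. Reads of Cycs can be shared with copies elsewhere, as 28.2% of its windows occur in transcripts of 43 other genes.

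Complex IV, cytochrome c oxidase, has 18 genes here including Ndufa4, which was named for complex I and is now known as a complex IV subunit. They summed to 1459, 2263 and 4747 CPM, and 12 of the 18 passed the filter. Cox6a1 was the highest of all members per length, with a mean of 1092 CPM per kb and 36.6, 560 and 1258 CPM as lowest, median and highest (chr5:115345642-115348981). Cox4i1, the common form of a large nuclear subunit, followed with 616 CPM per kb and had 212, 422 and 1094 CPM. Cox4i1 was thus well read in each of the 46 cells. Related to the complex but not part of its core list, Cox7a2l, a factor that joins complexes III and IV, had 0.522, 127 and 669 CPM.

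The ATP synthase F1 head had the highest median sum of all groups (1340, 3564 and 6909 CPM) from only 5 genes. Atp5b, the catalytic beta subunit, had 520, 1390 and 3386 CPM and 780 CPM per kb, the highest of the head, and it was read in every cell. Atp5d, the delta subunit, was the lowest of the head with 179 CPM per kb and 4.57, 179 and 529 CPM. The 10 stalk and membrane genes summed to 1806, 3162 and 6211 CPM. Atp5g1, one of 3 genes for the proton-carrying c ring, was the highest of these per length with the shortest mRNAs (937 CPM per kb, with 118, 547 and 1051 CPM), and Atp5k, the small e subunit, the lowest (134 CPM per kb). The Atp5g1 value rests on its shortest RefSeq-paired mRNA of 596 bases; with the median of its transcript lengths it was 210 CPM per kb, and Atp5o, a stalk subunit, was then the highest with 649. Atp5s and Atp5sl, which share a name with the enzyme but are not subunits, summed to 0, 7.73 and 328 CPM.

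On the TMM scale the 2 macrophage-like cells stood apart in some complexes. Their complex IV sums were 7014 and 3178 CPM, and 1 of them lay above all 46 other cells. Their accessory complex I sums, 7096 and 7404 CPM, were also above all others, while their F1 sums of 1529 and 1544 CPM were near the lowest. The same scaling limit holds here, and with 2 cells no comparison between cell types was made.

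For tissue-type forms, the common gene of each pair carried nearly all reads. Shares below are of the CPM per kb of mRNA of a family, summed over the 46 cells. Cox6a2, the heart and muscle form of Cox6a, Cox8b, the muscle form of Cox8, and the testis-type forms Cox7b2 and Cox8c had no read in any cell, against 57391 reads of Cox6a1, 13495 of Cox7b and 12893 of Cox8a. Cox4i2, the lung form that is known to respond to oxygen, made up 0.207% of Cox4 and had 0, 0 and 36.3 CPM. Cox7a1, the muscle form of Cox7a, made up 0.563% with 0, 0 and 12.1 CPM, from 44 reads in 4 cells. Ndufa4l2, a hypoxia-inducible relative of Ndufa4, made up 0.354% with 0, 0 and 48.8 CPM.

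Cox6b2 was the exception among these forms. This testis-type partner of Cox6b1 (Cox6b2 at chr7:4751792-4753094 and Cox6b1 at chr7:30616861-30626151, both minus strand) had reads in 35 of 46 cells, 1803 in all, and made up 12.2% of Cox6b, or 10.6% with median transcript lengths. Its level was 0, 5.05 and 124 CPM, against 9.14, 184 and 658 CPM for Cox6b1. In a single cell its share of the family ran from 0 over a median of 3.87% to 49.8%, so Cox6b1 stayed the larger form in every cell. None of the windows of Cox6b2 occur in another gene. The share had a rho of 0.33 with Gata1 and of -0.30 with Mpo across the 46 cells, which share a sort and a protocol and differ in depth. Its rho with the number of genes read was 0.20. The 2 macrophage-like cells had 0 and 0.692 CPM of Cox6b2.

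**Figure D2:**
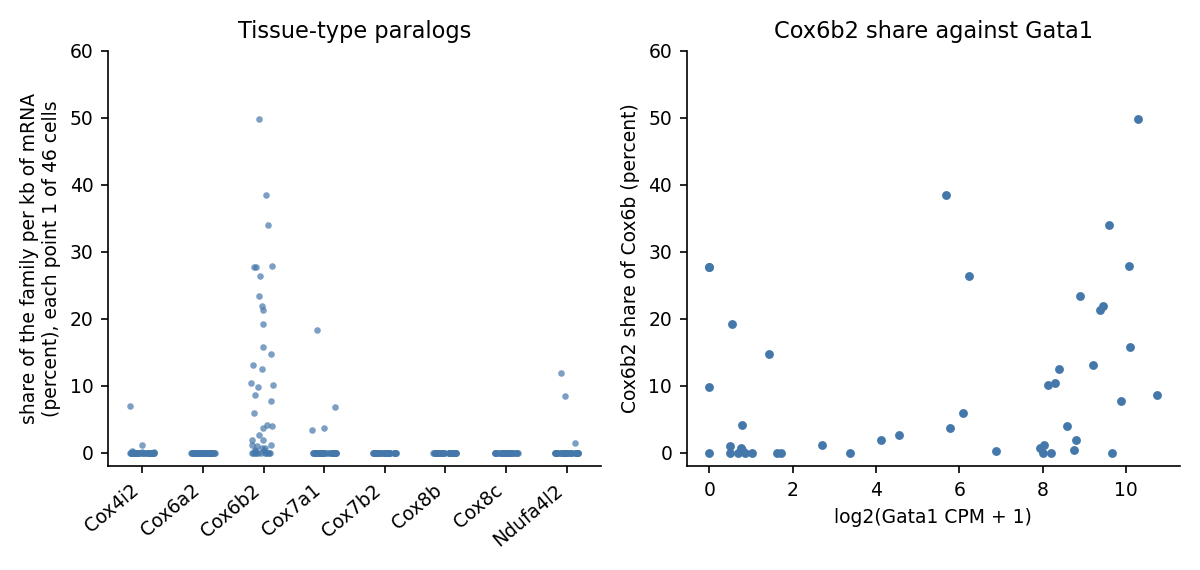
Left, share of each tissue-type form in its gene family per kb of mRNA (percent), one point per cell for 46 cells. Right, the Cox6b2 share of Cox6b (percent) against log2(Gata1 CPM + 1) in the same cells. The largest share, 49.8%, is in a cell with Gata1 reads. Shares of 0 occur in cells with 0 to 811 CPM of Gata1, mostly at the low end. Among them are shallow cells with 246007, 357378, 507732 and 989513 counts, while a cell with 976480 counts had a share of 27.7%. The part of depth was not tested.

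The c ring of the ATP synthase is made from 3 genes that encode the same mature protein behind different import signals. With the shortest RefSeq-paired mRNA of each, Atp5g1 made up 52.2% of the family, Atp5g3 31.5% and Atp5g2 16.3%. With median transcript lengths the order turned round, to 52.8% for Atp5g3, 27.5% for Atp5g2 and 19.7% for Atp5g1, so the leading gene of the ring is not settled by these counts. The dependence is on Atp5g1, whose transcripts differ most in length. The Atp5g1 share had a rho of 0.30 with Gata1 under both lengths. Changing little but the Atp5g1 length nearly keeps the order of the cells by that share, so the equal values do not test the choice.

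Spread between cells was small for the mean CPM of these genes. The squared coefficient of variation of each gene was set against a trend on mean level fitted over all 8482 genes. Of the 85 members 78 lay below the trend, with a median ratio of 0.27, where all genes had a median of 1.01. The median coefficient of variation of the members was 0.73, against 2.16 over all genes, and the median of their mean levels was 145 CPM against 46.9. A ratio of 2 or more was reached by 14% of all genes and by 1 member (1.18%), Ndufaf5, an assembly factor that modifies a core subunit of complex I. Ndufaf5 had 0, 0 and 845 CPM, with reads in 18 of 46 cells and a ratio of 3.07. Without the 5 cells of lowest total count no member reached 2, but the share of all genes under that setting is not given. Members also have short mRNAs: 52 of the 85 are under 1000 bases, against 704 of the 7934 genes with a known length. The trend takes no account of length, and the part of length in the spread was not tested.

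The next in order were Uqcrc1, a core protein of complex III (ratio 1.55, with 11.6, 493 and 2841 CPM), and Ndufaf1, another assembly factor (1.32, with 0, 0.417 and 530 CPM). Sdha followed (1.19, with 0, 119 and 1187 CPM), then Atp5f1, the b subunit of the stalk (1.16, with 9.73, 620 and 3189 CPM), and Atp5s (1.06, with 0, 0 and 326 CPM). At the other end stood Cox7c, a small complex IV subunit, with a ratio of 0.03 and 7.3, 33 and 76.6 CPM. Atp5k had 0.04, with 4.57, 43.9 and 110 CPM. The mRNAs of Cox7c and Atp5k are short, 540 and 371 bases, against 1166 for Ndufaf5. Both were read in each of the 46 cells at a low level, which is the opposite of the on-or-off reading of Ndufaf5.

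**Figure D3:**
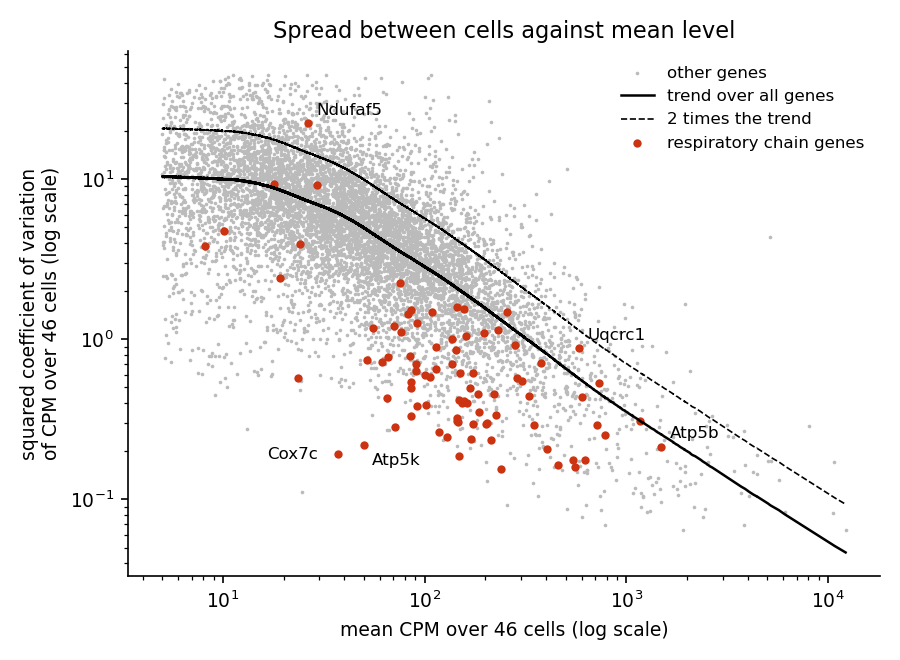
Squared coefficient of variation of CPM against mean CPM over 46 cells (both axes on a log scale), grey points for other genes and red for the 85 respiratory chain genes, with the trend and 2 times the trend as lines. Ndufaf5 alone of the red points lies above the dashed line, and 78 of the 85 lie below the solid one.

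Members were only weakly correlated with each other. Over the 3570 pairs of the 85 members the median rho was 0.07 against 0.01 over pairs of all genes, 65.7% of pairs were positive against 53.7%, and 8.01% reached 0.3 against 3.18%. Length moved with this: pairs of members whose mRNAs are both under 1000 bases had a median of 0.11 (0.03 over all genes of that length), and pairs both at 1000 bases or more had 0.04 (0.02). Within complexes the median ran from 0.01 in complex II to 0.26 in complex IV. The part of mRNA length in these values was not tested beyond the sums below.

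Of the sums per complex, accessory complex I and complex IV were the most alike, with a rho of 0.70 over 46 cells. Both are made of short mRNAs (median 659 and 590 bases) and both followed the summed level of short genes outside the chain (rho 0.62 and 0.76). Given those other short genes the rho between them was 0.44. Core complex I, by contrast, had a rho of 0.02 with the accessory subunits of its own complex and of 0.43 with complex II, whose mRNAs have a median of 2066 bases against 1046 in the core. The F1 head and the stalk and membrane part had a rho of 0.34, and complex III and accessory complex I also 0.34. These sums share the depth and scaling of each cell.

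Toward Gata1, 7 of the 85 members had a rho of 0.3 or more (8.24%), where 5.73% of all 8481 genes that passed the filter did, members included, and 1 had -0.3 or less (1.18%), where 5.49% did. The median rho was 0.09 against 0.02 over all genes, and 63 of 85 were positive against 53.4% of all genes. Most of the chain therefore lay near 0, with more positive than negative values. Without 2 of the 4 cells with no Gata1 read the count of members at 0.3 or more was 13 (15.3%), against 5.34% of all genes. Those 4 cells are tied, the 2 left out were taken by column order, and other picks were not run.

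Cox5b, a zinc-binding subunit of complex IV (chr1:36691449-36693681, plus strand), had the highest value, a rho of 0.46. Its level was 0, 133 and 488 CPM. Atp5g1 followed with 0.41, Atp5k with 0.39 and Uqcr11 with 0.37, at the levels given above. Cox6b2 had 0.36 and Atp5d 0.34. Atp5g3, the c ring gene with 4.57, 388 and 824 CPM, had 0.32. So 3 of the 7 belong to the stalk and membrane part of the ATP synthase and 2 to complex IV. Over the 8 alternative settings Cox5b, Atp5g1, Atp5k, Uqcr11 and Cox6b2 stayed at 0.3 or more in all 8, and Atp5d in 7. Atp5g3 ran from 0.23 to 0.33 and stayed there in 2 of 8.

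At the low end stood Ndufs1 with a rho of -0.35 with Gata1. Ndufv1, the flavin-binding core subunit of complex I, had -0.22 with 0, 103 and 858 CPM. Atp5c1, the gamma subunit that turns inside the F1 head, had -0.17 with 13.7, 666 and 1728 CPM. Ndufs1 and Ndufv1 both belong to the part of complex I that takes electrons from NADH, but Ndufv2 of the same part had a rho of 0.09. Ndufc1, an accessory subunit, and Ndufaf3, an assembly factor, both had -0.16, with 7.16, 45 and 313 CPM and 0, 3.17 and 276 CPM. Uqcrb, the ubiquinone-binding protein of complex III, had -0.13 with 84.6, 236 and 498 CPM. Of this group Ndufs1 alone passed -0.3, and it did so in 7 of 8 alternative settings.

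Toward Mpo, 1 member had a rho of 0.3 or more (1.18%, against 7.58% of all genes) and 2 had -0.3 or less (2.35%, against 5.21%). The median was -0.03 against 0.00, and 32 of 85 were positive against 50.2%. Both shares past the threshold lay below those of all genes in these cells. Without the 5 cells of lowest total count 7 members were at -0.3 or less (8.24%), against 7.07% of all genes, so the lower share on that side depends on those cells. Ndufs1 was the 1 member with a positive value past the threshold (rho 0.33), so the same core subunit was lowest with Gata1 and highest with Mpo. Ndufa4 came next (0.27, with 80, 312 and 1070 CPM), followed by Uqcrb (0.25), Ndufaf3 (0.21), Ndufa7 (0.18, with 0, 125 and 318 CPM) and Ndufb8 (0.17). Ndufa7 and Ndufb8 are accessory subunits of complex I.

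On the negative side Ndufs6, a zinc-binding accessory subunit, and Ndufaf4, an assembly factor, both had -0.33. Ndufs6 had 0, 70.8 and 352 CPM and Ndufaf4 had 0, 123 and 553 CPM. They passed -0.3 in 6 and 4 of 8 alternative settings. Atp5k and the core subunit Ndufs7 (11.4, 159 and 506 CPM) both came to -0.30 when rounded and did not pass. Ndufaf7, a methylating assembly factor with 0, 19 and 474 CPM, had -0.29, and Cox6b2 had -0.27. Assembly factors thus appear at both ends, with Ndufaf3 positive and Ndufaf4 and Ndufaf7 negative.

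**Figure D4:**
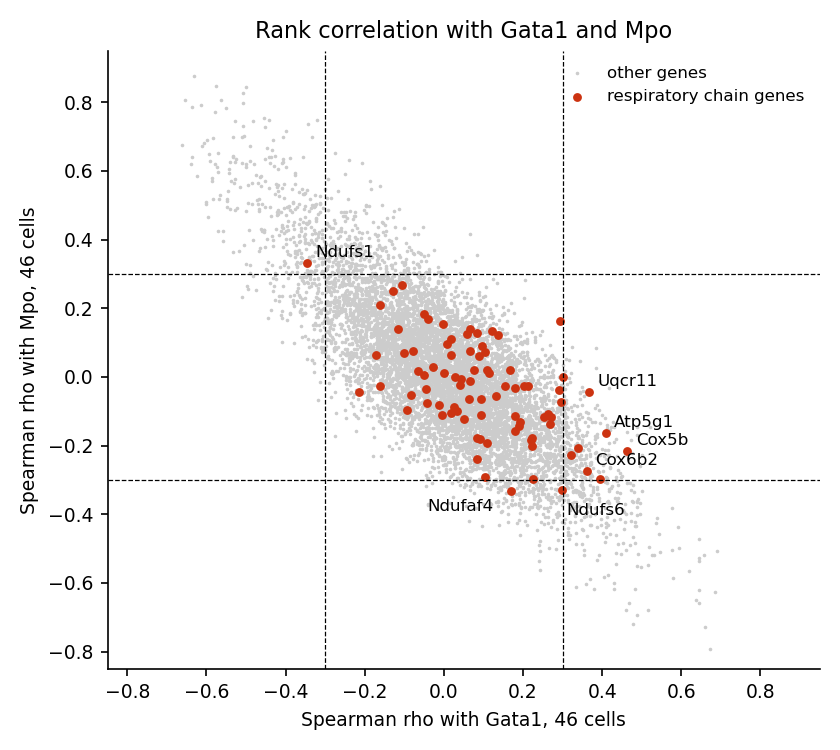
Spearman rho with Mpo against rho with Gata1 over 46 cells, grey points for other genes that passed the filter and red for the 85 respiratory chain genes; dashed lines mark 0.3 and -0.3. Ndufs1 is the 1 red point at the upper left past both thresholds, and 7 red points lie at or beyond 0.3 on the Gata1 axis.

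By complex, the stalk and membrane sum of the ATP synthase had the highest rho with Gata1, 0.37, and was at -0.31 with Mpo. Over the 8 alternatives these ran from 0.23 to 0.39 and from -0.38 to -0.25. The F1 head of the same enzyme had 0.07 and -0.11. Complex III had 0.28 and -0.07, complex IV 0.21 and 0.01, accessory complex I 0.13 and -0.01, complex II 0.08 and -0.04, core complex I -0.07 and -0.09, and Cycs 0.02 and 0.06. The lowest value of any sum was that of the complex I assembly factors with Mpo, -0.47 (-0.61 to -0.28 over the alternatives). The rho of that sum with Gata1 was 0.21. Gene by gene the 7 assembly factors had a median rho of -0.07 with Mpo, and 1 of them, Ndufaf4, was at -0.3 or less. With Gata1 the sums of core and accessory complex I, complex II and the F1 head changed sign among the alternatives. Each pair is a description of the same 46 cells, and differences between complexes were not tested.

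The summed level of all 93 genes had a rho of 0.28 with Gata1 and -0.28 with Mpo over the 46 cells (Pearson 0.27 and -0.19 on the log2 scale). In the authors' deposited log2 table the same sum had -0.01 with Gata1 and -0.17 with Mpo, so the relation to Gata1 depends on the scaling. The size factors of that table rest on the 1097 genes read in every cell, of which 54 are members and 77 are ribosomal protein genes. Given the summed level of other short genes, with which the member sum had a rho of 0.53, the values were 0.23 and -0.38. The sum also had a rho of 0.27 with the total count, -0.10 with the number of genes read, -0.37 with the TMM factor and -0.14 with the proliferation gene Mki67. The part of depth and scaling in the relation was not tested further.

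**Figure D5:**
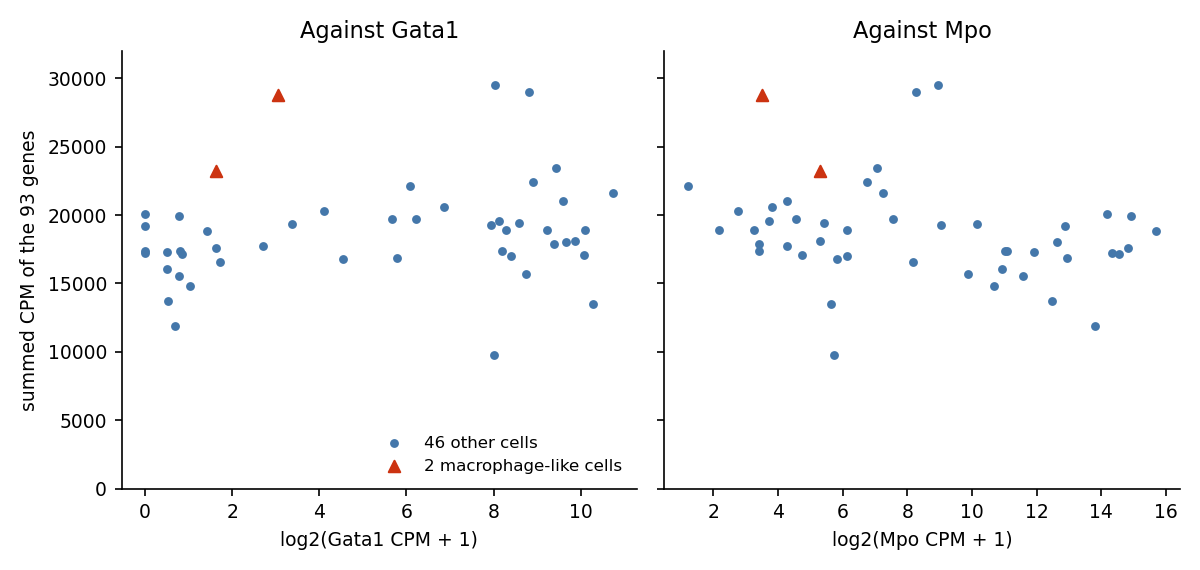
Summed CPM of the 93 genes in each cell against log2(Gata1 CPM + 1) on the left and log2(Mpo CPM + 1) on the right; circles are the 46 cells and triangles the 2 macrophage-like cells. The sum stays between 9744 and 29522 CPM over the whole range of both genes, with a rho of 0.28 and -0.28.

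Cell type lists were set beside the sum. All 8 erythroid genes of the list had a rho of 0.3 or more with Gata1, which is itself one of them. With the sum of the chain only 2 of the 8 were at 0.3 or more and 0 at -0.3 or less, at a median rho of 0.26. Their summed level had 0.39 with the sum of the chain. The summed neutrophil and monocyte list had -0.29, the macrophage list -0.27, the megakaryocyte list 0.02, the hepatoblast list -0.02 and the proliferation list 0.00. In the 46 cells the macrophage list ran from 0 to 1564 CPM with a median of 2.58, the megakaryocyte list from 0 to 2589 with a median of 92.5, and the hepatoblast list from 0 to 337 with a median of 0.476 and Ttr listed at 0. Their part in the sum of the chain was not tested.

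The genes whose level was most like the sum of the chain, by rho over 46 cells among all genes that passed, were led by Hdgf, named as a hepatoma-derived growth factor (0.64, with 14.1, 472 and 1672 CPM). Of the next 9, 5 encode ribosomal proteins: Rpl7 (0.58), Rplp0 (0.56), Rpl21 (0.52), Rpl8 (0.52) and Rpsa (0.51). Mcm5, a DNA helicase subunit, had 0.54, Epor, the erythropoietin receptor, 0.53, Slc25a11, a mitochondrial carrier, 0.52, and Ssna1 0.51. Epor had a median of 0 CPM and a highest value of 470, so its rho rests on the cells with reads. At the other end Malat1, a nuclear non-coding RNA, 2310039L15Rik, Emr1, a macrophage receptor, and Rrs1 all had -0.54, and Samd8 and Clip1 had -0.53.

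Other genes of mitochondrial energy metabolism, from lists outside the rule, were set beside Gata1 and Mpo in the same way. Over all genes that passed, 5.73% had a rho of 0.3 or more with Gata1 and 5.49% had -0.3 or less. With Mpo these shares were 7.58% and 5.21%. Whether the lists differ from those shares was not tested. In the citric acid cycle all 18 listed genes passed the filter; none had 0.3 or more with Gata1 and 1, Idh2, was at -0.45, and it was also the 1 gene past 0.3 with Mpo, at 0.49. Idh2, the mitochondrial NADP isocitrate dehydrogenase, had a median of 104 CPM. Of the 22 further assembly factors that passed, Cox17, a copper chaperone of complex IV (0.36), and Acad9, a complex I assembly factor (0.42), were past 0.3 with Gata1, and Lrpprc, which stabilises mitochondrial mRNA, was at -0.34 with Mpo. Among 9 genes of mitochondrial gene expression Polg had 0.33 and Polg2 -0.33 with Gata1, the catalytic and the accessory subunit of the same DNA polymerase. Polg had reads in 24 cells at a median of 0.359 CPM, and Polg2 in 17 cells at a median of 0 CPM. Their opposite signs carry little at such levels. Peo1, the helicase, had -0.32 with Mpo at a median of 8.59 CPM.

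Of the 8 regulators of mitochondrial biogenesis that passed, Myc alone was past 0.3, with Mpo (0.48). Nrf1 and Gabpa, whose letters were searched for above, had rho values of -0.02 and -0.13 with the sum of the chain, at medians of 3.13 and 2.49 CPM, and Yy1 had -0.17 at 17.3 CPM. At such levels a correlation in single cells carries little. Of the 7 carriers for ADP, ATP and phosphate that passed, Atpif1, an inhibitor of the ATP synthase known to be needed for heme synthesis in erythroblasts, had 0.58 with Gata1 and -0.38 with Mpo, both farther from 0 than any member of the chain, at a median of 374 CPM. Slc25a5, an ADP/ATP carrier with a median of 3403 CPM, had -0.04 and -0.13. None of the 6 further electron carrier genes that passed, such as Cyc1, cytochrome c1 of complex III, was past 0.3 in either direction.

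The promoter letters were also set beside the Gata1 values. In the 5 members with the GATA letters that passed the filter the median rho with Gata1 was 0.30, against 0.09 in the 65 without, and 2 of the 5, Atp5g1 and Atp5g3, were at 0.3 or more, Atp5g3 in 2 of 8 alternative settings. Another 5 members at 0.3 or more, Cox5b among them, were without the GATA letters. For the NRF1 letters the medians were 0.09 in 18 and 0.10 in 52 members, and for the GABPA letters 0.10 in 17 and 0.09 in 53. For the YY1 letters they were 0.17 in 7 and 0.09 in 63, with 0 of the 7 at 0.3 or more. With 5 genes on one side this is a description of those genes.

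How far reads can be told apart bears on some levels. Of the 93 members 40 share at least 1 window of 50 mRNA bases with another gene, and 14 share 20% or more; Atp5l (68.5%), Uqcrb (43.2%), Atp5g2 (38.3%), Ndufb4 (37%), Atp5h (36.9%) and Ndufs3 (35.8%) share the most. For 25 members some exon sequence overlaps that of another gene. Across the members that passed, level per kb had a rho of 0.24 with the shared part and of -0.32 with mRNA length. Level per kb is itself divided by that length. Before the division the level had a rho of 0.23 with length.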

How the data were processed

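Single cells were amplified by SMART-Seq on Fluidigm C1 chips and sequenced, per the labels' protocols. The authors deposited raw counts per gene and cell, made with TopHat2 2.0.12 and featureCounts 1.4.6 on mm10, per the submitters' processing notes; the annotation and the rules for strand and multiply mapping reads are not given in the sources used here. The deposited log2 table holds log2 of a normalised count plus 1, per the values: it equals the counts divided by size factors within 5.5e-14. Columns are named by codes that match no label, and all 48 belong to 1 group. No doublet caller was run; the labels' protocols state that chambers were inspected by microscope.

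CPM used TMM factors (edgeR 4.0.16, R 4.3.3; factors 0.419 to 1.70). Correlations and variability used Python 3.11.15, scipy 1.17.1 and statsmodels 0.14.6 (lowess fraction 0.3), and were tested on simulated data. Genes with reads in 10 or more cells and a mean level of 5 CPM or more were kept. Cells with a C1q sum of 1000 CPM or more were left out. Lengths are those of the shortest GENCODE vM21 transcript paired with a RefSeq mRNA, a choice made after lengths were seen, with the median as the alternative. Positions are GENCODE gene models on GRCm38, the same assembly as mm10.

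Named genes were, per complex, the members of highest and lowest level per kb, all tissue-type forms, the 6 members at each end of rho with Gata1 and with Mpo, the 6 of largest ratio to the trend of variability, and the 10 genes most like and the 6 least like the summed level. Cox7c, Sdhb and some others named for context were added after their values were seen. The members, lists and thresholds were chosen with earlier results of these data known. Alternatives covered scaling, the deposited log2 table, all 48 cells, depth, thinning to 246007 counts, the filter, Pearson correlation, outlying cells and thresholds.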

Additional observations from a re-analysis of the deposited data

How the results depend on the processing

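No paired analysis was possible because the series has 1 group and no comparison between groups. With 85 members and small counts past each threshold, a few genes near 0.3 decide the counts; the share of all genes past the same threshold under the same setting stands in parentheses. Members at a rho of 0.3 or more with Gata1, 7 in the main values (5.73%), were 13 without the 2 cells farthest from the median Gata1 level (5.34%) and 2 at a threshold of 0.4 (1.78%). The 2 cells left out come from 4 tied at 0 CPM of Gata1, taken by column order, so the 13 rests on that pick. Members at -0.3 or less with Gata1, 1 in the main values (5.49%), were 2 in the deposited log2 table (6.53%), 0 after thinning (5.15%) and 0 at a threshold of 0.4 (2.16%). Members at 0.3 or more with Mpo, 1 in the main values (7.58%), were 2 in the log2 table (7.71%), 3 without the 5 cells of lowest total count (8.22%), 2 given the number of genes read (7.35%), 0 after thinning (6.43%), 0 with Pearson correlation (7.75%) and 0 at 0.4 (3.61%). Those at -0.3 or less with Mpo, 2 in the main values (5.21%), were 1 with all 48 cells (4.1%), 1 with Pearson correlation (4.78%), 7 without the 5 shallowest cells (7.07%), 4 after thinning (5.49%), 4 given the number of genes read (6.54%) and 0 at 0.4 (1.54%). The 7 members at -0.3 or less with Mpo without the 5 shallowest cells are 8.24% of 85, above the 7.07% of all genes. In the main values the share of members on that side, 2.35%, lies below the 5.21% of all genes. The summed level had a rho of -0.01 with Gata1 in the log2 table, against 0.28. Members at 2 times the variability trend, 1 in the main values (14% of all genes), were 2 with all 48 cells, 2 at a threshold of 1.5 times and 0 without the 5 shallowest cells. For the variability alternatives the share of all genes is not given, so these counts have no background beside them. The cause was not tested for any change in this paragraph.

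Of all values recomputed under an alternative, 431 stayed within their limits, 25 moved and none of those computed changed sign past a threshold. Those limits are not the 0.3 line, and some values among the 431 crossed it. With Gata1, Atp5g3 had 0.32 in the main values and ran from 0.23 to 0.33. The complex IV sum had 0.21 and ran from 0.11 to 0.35. The 431 is therefore not a count of values that kept their side of 0.3. The median rho of the members ran from 0.02 to 0.12 with Gata1 and from -0.06 to -0.02 with Mpo, and the median pairwise rho from 0.04 to 0.10. The total without mitochondrially encoded genes could be run without Mpo only, where the median share of counts was 1.88% against 1.86%. Thinning left 85 members with a read in at least 10 cells.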
